A study of Mus musculus with 12 samples.

Results

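The 6 genes described here encode NMDA receptor subunits: Grin1, Grin2a, Grin2b, Grin2c, Grin2d and Grin3a. They were followed by symbol in 2 tables of the same study, among 30165 genes in oligodendrocyte precursor cells (OPCs) and 17918 genes in neurons, and all 6 were present and passed the filter on low counts in both. The family was chosen by the difference of Grin2c between dKO and ctl in OPCs, so the values of dKO against ctl in OPCs are given for the 6 subunits as a description, without a test.

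NMDA receptors are glutamate-gated cation channels with high permeability to calcium, and conventional receptors open only when glutamate and a co-agonist, glycine or D-serine, are bound and depolarization has relieved a block by magnesium. Each receptor contains the obligatory subunit GluN1, encoded by Grin1, together with GluN2 subunits (Grin2a to Grin2d), which bind glutamate and set the kinetics, or GluN3 subunits (Grin3a, Grin3b), which bind glycine and lower the calcium permeability. In the cortex, Grin2a and Grin2b are the main GluN2 genes of neurons. Grin2c is best known from granule cells of the cerebellum, and its transcript is also carried by cortical astrocytes. Cells of the oligodendrocyte lineage express NMDA receptor genes too.

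The libraries were made from mouse cortex, with 3 libraries of each genotype for OPCs and for neurons, 12 in all, and each pooled the cells of 2 mice. In dKO mice the genes of the L-type calcium channels Cav1.2 (Cacna1c) and Cav1.3 (Cacna1d) carry floxed alleles on both chromosomes (Cav1.2 fl/fl, Cav1.3 fl/fl), and NG2-CreERT2, a tamoxifen-dependent recombinase under control of the NG2 gene, removes them in OPCs, so that the neurons of these mice were not the targeted cells. The protocol gave tamoxifen on postnatal day 7 and again on day 8, at 100 mg/kg each. The labels call the ctl mice WT, and whether they carried Cre or floxed alleles or received tamoxifen, and the age at which cells were sorted for RNA-seq, are not given in the sources used here. OPCs were collected on a magnetic column through antibodies to O4, NG2 and CD140, and O4 also marks later stages of the lineage. Neurons were what remained once cells binding beads for O4, ACSA-2, CD11b or CD31 had been taken out.

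Total counts ranged from 14935963 to 19812274 in OPC libraries and from 15052901 to 16344585 in neuron libraries. Cacna1c, one of the targeted genes, had normalized counts of 373, 411 and 439 in ctl and 252, 337 and 312 in dKO OPCs, and the log2 fold change was -0.44 ± 0.15 (SE; adjusted p = 0.349, edgeR's quasi-likelihood test). Cacna1d had 251, 191 and 255 in ctl and 92.8, 153 and 232 in dKO OPCs (log2 fold change -0.55 ± 0.31, adjusted p = 0.531). Reads outside the removed exons are still counted for both genes, so gene totals do not measure recombination. The OPC libraries held summed normalized counts of 20948 to 40308 for 11 OPC markers and of 878391 to 1517130 for 12 oligodendrocyte markers. They also held 180857 to 414840 for 6 ependymal and choroid plexus markers, led by the transthyretin gene Ttr, 26478 to 72878 for 10 endothelial markers and 26319 to 117646 for 14 astrocyte markers. The neuron libraries held 10701 to 24883 for 10 neuron markers and 141683 to 325468 for 10 endothelial markers. None of the markers in the 10 lists was at 0 in all libraries of a cell type. Both preparations thus held transcripts of other cell types, the names OPC and neuron stand for the sorted fractions, and in such bulk samples fewer cells of a type and less RNA per cell cannot be told apart.

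In the OPC table Grin2c (ENSMUSG00000020734) lies at chr11:115139995-115158069 on the minus strand, in the deposited coordinates. Its nearest neighbours there are Tmem104, 2145 bases away, and Fdxr, 780 bases away. Grin1 (ENSMUSG00000026959) is at chr2:25181193-25209199, also on the minus strand. Of the 6 members only Grin2b is on the chromosome of a targeted gene, at 16.5 Mb from Cacna1c on chromosome 6. The 250 bases before the transcription start in RefSeq are shown for Grin2c and Grin1, since Grin2c had the highest deposited FPKM of the family in the OPC libraries and Grin1 encodes the obligatory subunit. The windows are in GRCm38.p6, chr11:115267244-115267493 for Grin2c and chr2:25319188-25319437 for Grin1, both read on the minus strand, 5′ to 3′. Capitals mark GC boxes (GGGCGG, or CCGCCC on the other strand) in Grin2c and E boxes (CACGTG, the same on both strands) in Grin1.
Grin2c: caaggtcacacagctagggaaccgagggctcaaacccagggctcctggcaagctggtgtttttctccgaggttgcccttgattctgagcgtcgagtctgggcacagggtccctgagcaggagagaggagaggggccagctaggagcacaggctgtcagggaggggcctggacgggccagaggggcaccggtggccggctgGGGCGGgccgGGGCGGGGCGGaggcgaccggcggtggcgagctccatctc
Grin1: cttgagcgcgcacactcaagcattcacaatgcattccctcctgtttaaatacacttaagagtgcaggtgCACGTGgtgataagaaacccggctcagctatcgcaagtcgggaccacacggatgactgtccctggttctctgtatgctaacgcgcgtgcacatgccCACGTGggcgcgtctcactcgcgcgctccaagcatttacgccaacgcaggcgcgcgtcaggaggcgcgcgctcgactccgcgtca
The Grin2c window had 3 GC boxes, of which the last 2 overlap, a GC content of 68.8% and 15 CG dinucleotides. The Grin1 window had 2 E boxes, a GC content of 58.8% and 27 CG dinucleotides. Over 32851 promoters of the same length, a GC box was found in 32.7% and an E box in 6.02%, and the medians were 52.4% GC and 6 CG dinucleotides. Neither window held TATAAA, which 12.4% of promoters did. These are letters in a window and not sites of binding.

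Per length, Grin2c was the leading subunit transcript in OPCs. On the deposited FPKM scale (reads scaled for gene length and sequencing depth), ctl OPCs had a level of 2.43 ± 0.82 (SD, n = 3) for Grin2c, 0.770 ± 0.275 for Grin3a, 0.298 ± 0.050 for Grin2d, 0.134 ± 0.013 for Grin1, 0.056 ± 0.042 for Grin2a and 0.028 ± 0.016 for Grin2b. As a share of the summed FPKM of the 6 genes, Grin2c took 57.5%, 65.9% and 70.1% in the ctl libraries. Grin3a took 22.1%, 23.2% and 16.8%, and Grin2d took 12.4%, 7.03% and 6.25%. The obligatory subunit Grin1 took only 5.04%, 3.17% and 3.18%. Among the 6, the order Grin2c, Grin3a, Grin2d, Grin1 was the same in all 3 ctl libraries. Grin2a and Grin2b, the last in the order, overlapped in their shares. Grin3b, not among the 6 and under the filter with 3 to 9 raw counts, had an FPKM near that of Grin1. It was 0.134, 0.062 and 0.162 in the ctl libraries, where Grin1 had 0.132, 0.148 and 0.122.

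In dKO OPCs the Grin2c share was 76.1%, 78.4% and 86.9%, above each ctl library. The share of Grin3a was 14.8%, 12.1% and 8.01%, below each ctl library, although its own FPKM was 1.03 ± 0.36 (SD, n = 3) in dKO and 0.770 ± 0.275 in ctl, since the shares of a library add up to 100% and Grin2c takes most of it. The FPKM of Grin2c was 11.4 to 22.0 times that of Grin1 in ctl and 21.0 to 96.1 times in dKO, the highest ratio being in dKO library 3, where Grin1 was lowest.

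**Figure D1:**
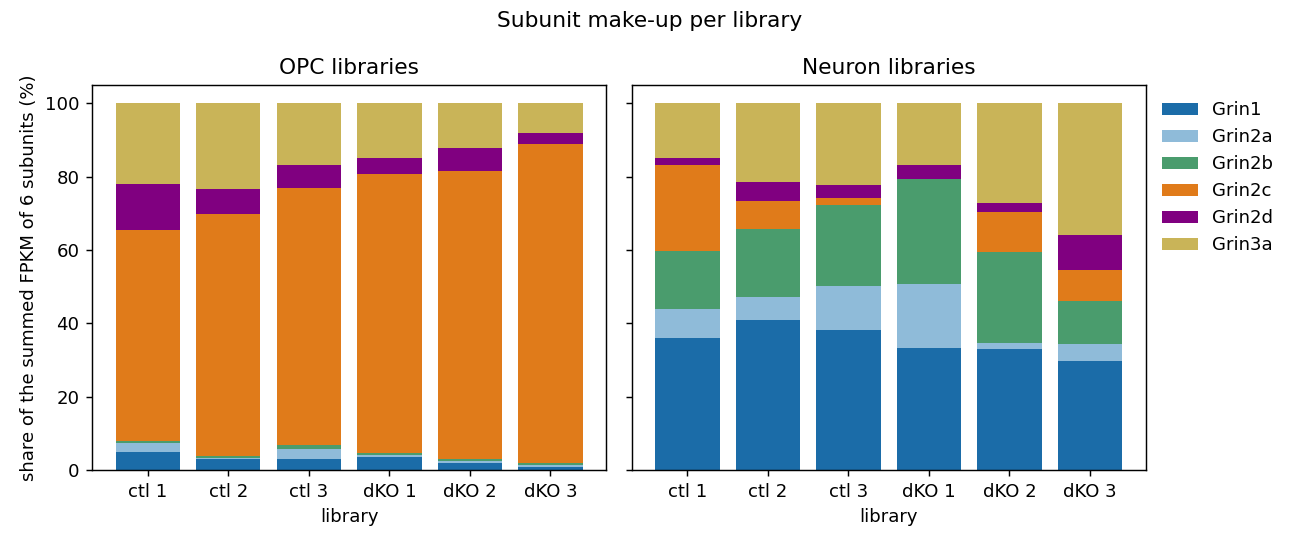
Share of each of the 6 subunit genes in their summed FPKM (y axis, %) in each OPC library (left) and each neuron library (right), as stacked bars adding up to 100%. Grin2c takes 57.5% to 86.9% of each OPC bar, and Grin1 takes 29.8% to 40.9% of each neuron bar.

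In neurons Grin1 had the highest share of the deposited FPKM in 5 of 6 libraries, and Grin3a in dKO library 3. This order depends on the lengths: with the gene lengths of the OPC table, Grin1 led in ctl libraries 2 and 3 only, Grin2c in ctl library 1, Grin2b in dKO library 1 and Grin3a in the other 2, and without division by length Grin1 led in no library. On the FPKM scale, summed over the transcripts of a gene, ctl neurons had a level of 1.27 ± 0.19 (SD, n = 3) for Grin1, 0.633 ± 0.021 for Grin3a, 0.613 ± 0.055 for Grin2b, 0.417 ± 0.488 for Grin2c, 0.290 ± 0.087 for Grin2a and 0.113 ± 0.035 for Grin2d. Grin1 took 36.0%, 40.9% and 38.2% of the sum in ctl, and no other subunit reached its share in these libraries. The shares of Grin3a and Grin2b overlapped, and that of Grin2c ranged from 1.71% to 23.6%, so it has no fixed place in the order.

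In dKO neurons Grin1 took 33.4%, 33.0% and 29.8%, below each ctl library (two-sided exact permutation test, p = 0.1, the smallest that 3 libraries against 3 allow; 0.6 after Benjamini-Hochberg adjustment over the 6 shares). Grin3a took 16.8%, 27.0% and 36.0%, and in library 3 it was 1.21 times the FPKM of Grin1. For Grin3a and the other 4 subunits the shares of ctl and dKO overlapped, with permutation p from 0.3 to 0.9. Without dividing by length the Grin1 shares of ctl and dKO neurons overlapped too. The FPKM of Grin2c was at most 0.655 times that of Grin1 in any neuron library. The lengths behind the FPKM differ between the tables, so the cell types are set side by side and were not tested against each other.

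The dKO libraries of OPCs had more Grin2c than the ctl libraries. Normalized counts were 135, 270.3 and 239 in ctl and 395, 833 and 748 in dKO. The groups did not overlap, and the lowest dKO library, 1, was above the highest ctl library, 2. The log2 fold change was 1.62 ± 0.33 (SE), or 3.08 times, and ranged from 1.37 to 1.89 under the 10 alternatives, leaving out single libraries included. As the contrast that chose the family, it carries no test here.

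The other 5 subunits overlapped between the genotypes in OPCs. Grin3a, a GluN3 subunit and second in level, had normalized counts of 126, 232 and 140.0 in ctl and 188, 313 and 168 in dKO (log2 fold change 0.43 ± 0.31). Grin2d, a GluN2 subunit with slow deactivation, had 38.5, 38.1 and 28.2 in ctl and 30.3, 89.8 and 35.3 in dKO (0.57 ± 0.45). Its mean in dKO rests on library 2, and without this library the log2 fold change was -0.09.

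Grin1 had normalized counts of 22.7, 25.0 and 20.9 in ctl and 36.2, 40.8 and 15.0 in dKO OPCs (log2 fold change 0.43 ± 0.42), so that the dKO libraries stood on both sides of ctl. Grin2b had 7.87, 8.34 and 19.8 in ctl and 13.7, 39.0 and 27.8 in dKO (1.16 ± 0.54), with ctl library 3 above dKO library 1. Grin2a, the GluN2 subunit of mature cortical synapses, had 19.2, 3.57 and 30.3 in ctl and 9.77, 15.4 and 13.9 in dKO (-0.45 ± 0.64), and without ctl library 3 the value was 0.13. These 3 genes had fewer than 50 raw counts in any OPC library.

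Of the 6 members, 1 had groups that did not overlap in OPCs, where 16.9% of the 17364 genes tested did so, in either direction. The median log2 fold change of the 6 was 0.50, and that of all genes tested was 0.01. At an unadjusted p under 0.05, 6.27% of all genes were higher and 5.27% lower in dKO OPCs. At an adjusted p under 0.05 it was 0.00576%, which is 1 gene, 1520401A03Rik (log2 fold change -6.49 ± 0.28, adjusted p = 1.1e-04), named because it is the single one. The number was 293 with DESeq2, 87 with no filter on low counts and 27 with a replicate block. Without dKO library 2, 199 genes passed the adjusted threshold. Without ctl library 2, 630 were higher and 476 lower at the unadjusted threshold, against 1088 and 915 with all libraries.

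**Figure D2:**
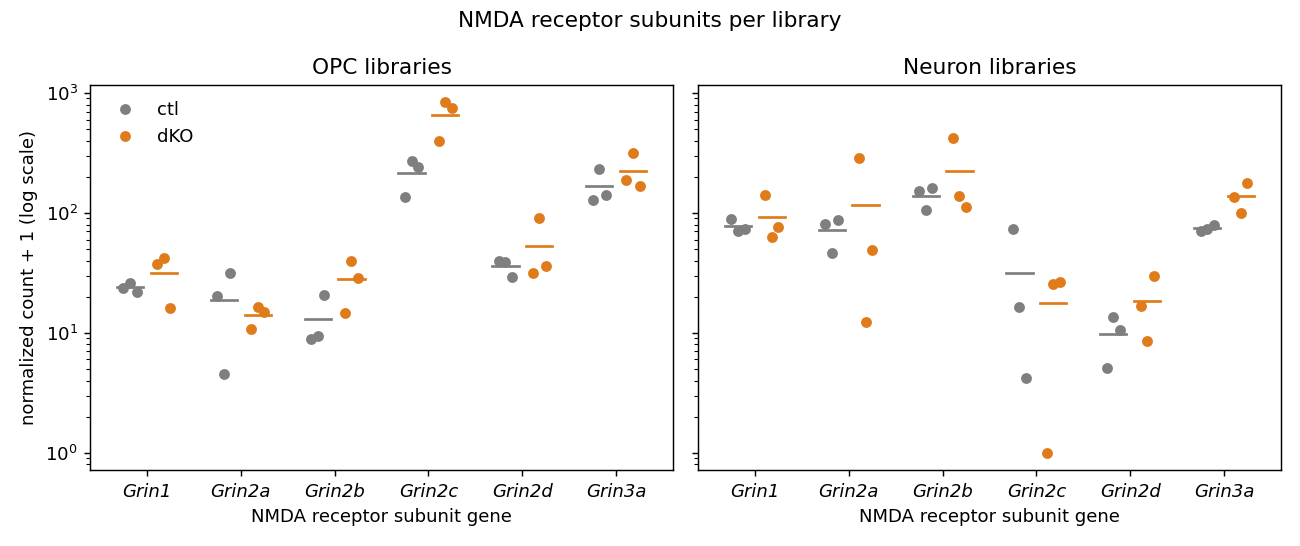
Normalized count + 1 (y axis, log scale) of the 6 subunit genes in each ctl (grey) and dKO (orange) library of OPCs (left) and neurons (right), with points for libraries and lines for group means. The ctl and dKO points separate for Grin2c in OPCs (135 to 270.3 against 395 to 833) and for Grin3a in neurons (70.1 to 78.2 against 99.4 to 178).

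Markers of astrocytes, which carry Grin2c as well, tended to be higher in the dKO OPC libraries too, though their sums overlapped between the genotypes. Of 14 astrocyte markers, all had a log2 fold change above 0 (0.05 to 1.64, median 1.09), 12 were higher in dKO at an unadjusted p under 0.05 and 0 passed the adjusted threshold. Only Gjb6, a connexin of astrocytes, had a log2 fold change (1.64 ± 0.33) at or above that of Grin2c. The summed normalized count of the 14 genes was 26319, 35844 and 42565 in ctl and 40670, 117646 and 62414 in dKO, led by the glutamate transporter Slc1a2 and lowest for Gjb6. Both Grin2c and the sum were lowest in ctl library 1 and highest in dKO libraries 3 and 2, in that order. The sums of dKO library 1 and ctl library 3 were close together, 40670 and 42565, whereas Grin2c was 395 in the former and 239 in the latter. The part of the astrocyte markers in the Grin2c difference was not tested.

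Microglia markers were also higher in the dKO OPC libraries, 11 of 12 at an unadjusted p under 0.05, with sums of 5863 to 6540 in ctl and 6919 to 19553 in dKO. Their order differed from that of Grin2c: dKO library 2, highest in Grin2c, had the lowest sum of the dKO libraries. Of the 12 oligodendrocyte markers, 4 (Mog, Opalin, Ugt8a and Aspa) were lower at an unadjusted p under 0.05, and the sums overlapped (1191390 to 1408090 in ctl, 878391 to 1517130 in dKO). Of the 11 OPC markers, 0 passed that threshold, while 8 had a log2 fold change above 0 and the median was 0.57. Inhibitory neuron markers had low sums that did not overlap, 263 to 311 in ctl and 382 to 433 in dKO, with 2 of 8 tested (Lhx6, Sst) higher at that threshold, and 9 of 10 neuron markers were above 0 in log2 fold change, with overlapping sums of 3709 to 4572 and 4392 to 5567. All 10 endothelial markers (median 0.29) and 7 of 8 pericyte and vascular smooth muscle markers (median 0.39) were above 0, and 0 passed the unadjusted threshold. Endothelial sums were 31226 to 44370 in ctl and 26478 to 72878 in dKO. Those of pericyte and vascular smooth muscle markers were 12188 to 17480 and 10836 to 22549. Both were lowest in dKO library 2. The part of these lists in the values of Grin2c, Grin1 and the other subunits was not tested either.

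**Figure D3:**
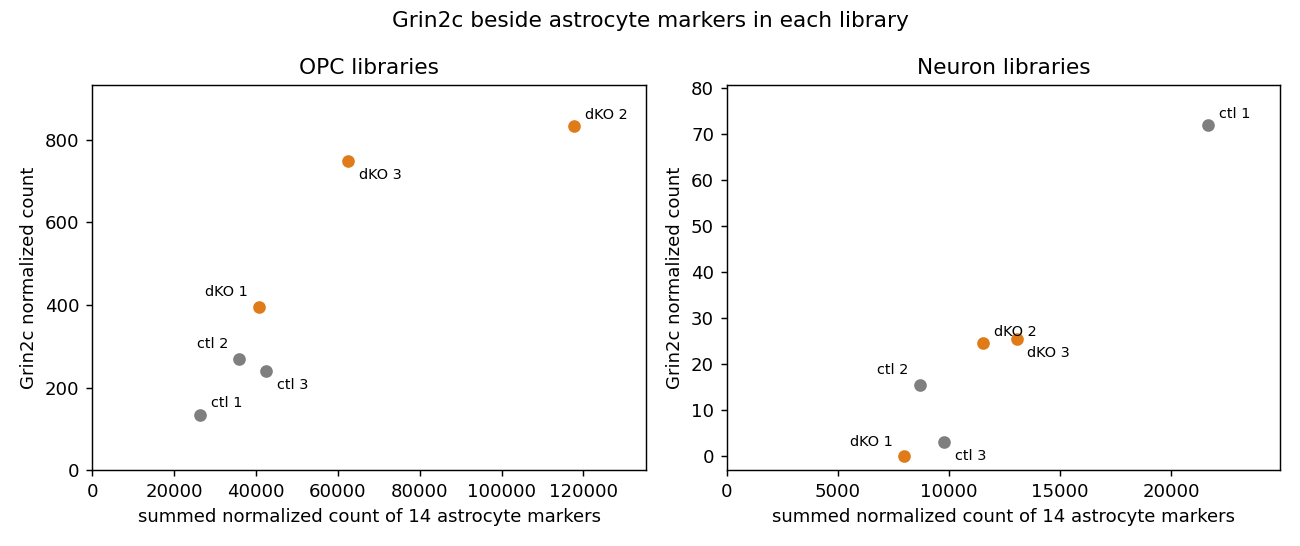
Normalized count of Grin2c (y axis) against the summed normalized count of 14 astrocyte markers (x axis) in each ctl (grey) and dKO (orange) library of OPCs (left) and neurons (right), with 1 point a library. In OPCs both are lowest in ctl library 1 and highest in dKO library 2, and in neurons both are lowest in dKO library 1 and highest in ctl library 1.

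The genes on both sides of Grin2c had smaller differences in OPCs. For Tmem104 the log2 fold change came to 0.35 ± 0.17 (adjusted p = 0.468) and for Fdxr, the ferredoxin reductase, to -0.26 ± 0.17 (adjusted p = 0.58, edgeR's quasi-likelihood test), and both overlapped between the genotypes. The library kit does not keep the strand, so reads of a gene and an antisense partner cannot be told apart. Grin1os, antisense to Grin1, had 0 to 7 raw counts in the OPC libraries. Grin3b, the other GluN3 gene, did not reach the filter in OPCs, with normalized counts of 7.87, 3.57 and 9.40 in ctl and 10.7, 12.7 and 13.9 in dKO.

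In neurons no subunit passed the adjusted threshold, and 0% of the 14352 genes tested did. At an unadjusted p under 0.05, 4.96% of the genes tested, 712, were higher and 4.04%, 580, were lower in dKO neurons, and 15.3% had groups that did not overlap. DESeq2 called 88 genes. Without ctl library 1 the unadjusted counts were 473 higher and 307 lower. Of the 6 members, 1 was past the unadjusted threshold and had groups that did not overlap, which was Grin3a, and 5 had a log2 fold change above 0. Their median was 0.70, and that of all genes tested was 0.01. Neuron markers had a median of 0.57, with 9 of 10 above 0 and 2 higher at the unadjusted threshold. All 10 endothelial markers were below 0 (median -0.40, 3 of them lower at the unadjusted threshold), with sums of 290361 to 325468 in ctl and 141683 to 260160 in dKO, which did not overlap. All 12 oligodendrocyte markers were below 0 as well (median -0.88, 1 of them lower at the unadjusted threshold), with overlapping sums of 12423 to 65846 in ctl and 19061 to 31819 in dKO. Of 5 ependymal and choroid plexus markers tested, 3 were higher and 1 lower at the unadjusted threshold (median 0.90), with overlapping sums of 76729 to 145616 in ctl and 134399 to 475755 in dKO. The 11 OPC markers had a median of -0.81, with 1 higher and 1 lower. The part of these lists in the values of the subunits was not tested.

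Grin3a had normalized counts of 70.1, 72.0 and 78.2 in ctl neurons and 134, 99.4 and 178 in dKO neurons. All 3 dKO libraries were above the closely spaced ctl libraries. The log2 fold change was 0.90 ± 0.31 (SE; edgeR's quasi-likelihood test, adjusted p = 0.521), and the adjusted p lay between 0.247 and 0.87 under the alternatives. Without ctl library 1, ctl library 2 or dKO library 3 the unadjusted p was 0.0514, 0.0512 and 0.0917, with log2 fold changes of 0.87, 0.89 and 0.67. Markers of inhibitory neurons, some of which express Grin3a, had sums of 5436 to 9422 in ctl and 10202 to 13221 in dKO. Of these 10 markers, 2 (Dlx1, Dlx2) were higher and 1 (Vip) lower at an unadjusted p under 0.05. Their part in the Grin3a values was not tested.

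Grin1, Grin2a and Grin2b were each highest in dKO library 1. Grin1 had normalized counts of 88.4, 70.0 and 72.9 in ctl and 139, 61.5 and 74.7 in dKO (log2 fold change 0.25 ± 0.38, adjusted p = 0.87, edgeR's quasi-likelihood test). Grin2a had 79.2, 45.7 and 86.8 in ctl and 284, 11.4 and 48.1 in dKO (0.70 ± 0.91, adjusted p = 0.841). Grin2b had 150.3, 105 and 160 in ctl and 422, 138 and 112 in dKO (0.70 ± 0.49, adjusted p = 0.7). For Grin1 and Grin2a the dKO libraries stood on both sides of ctl, and for Grin2b the other 2 dKO libraries lay within the range of ctl. Without dKO library 1 the log2 fold changes were -0.18, -1.25 and -0.15.

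The same library had the highest sum of 8 excitatory neuron markers, 3688, where the other 5 neuron libraries had 1053 to 1605, and of 10 neuron markers, 24883 against 10701 to 18342. It also stood apart in the sum of 10 endothelial markers, 141683 against 259284 to 325468, and of 6 ependymal and choroid plexus markers, 475755 against 76729 to 225894. Excitatory markers had log2 fold changes of 0.16 to 1.29, with 0 of 8 at an unadjusted p under 0.05. The part of these 4 lists in the values of Grin1, Grin2a and Grin2b was not tested.

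Grin2c differed widely between neuron libraries of the same genotype. Its normalized counts were 72.1, 15.6 and 3.21 in ctl and 0, 24.6 and 25.6 in dKO, from 0 to 71 raw counts. Both the highest and the second lowest library were ctl. The log2 fold change of -0.85 ± 1.25 (adjusted p = 0.862, edgeR's quasi-likelihood test) turned to 0.82 without ctl library 1. The 14 astrocyte markers summed to 21663, 8688 and 9784 in ctl and to 7980, 11535 and 13040 in dKO neurons, highest in ctl library 1 and lowest in dKO library 1, as for Grin2c. The 12 microglia markers had the same extremes, with sums of 28960 in ctl library 1 and 6457 in dKO library 1, and the oligodendrocyte and OPC markers were also highest in ctl library 1 (65846 and 2114). Of the astrocyte markers, 2 (Slc39a12, Sox9) were higher and 2 (Gfap, Gja1) lower in dKO at an unadjusted p under 0.05. The part of these 4 lists was not tested. Grin2d had 4.06, 12.6 and 9.64 in ctl and 15.7, 7.57 and 28.7 in dKO (0.96 ± 0.72, adjusted p = 0.717), with overlapping groups.

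**Figure D4:**
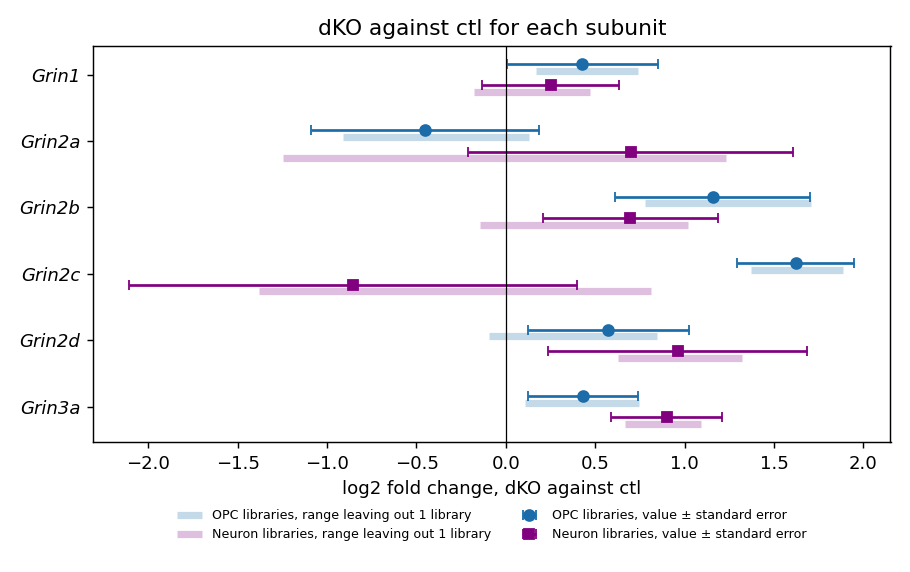
Log2 fold change, dKO against ctl (x axis), of each subunit in OPCs (blue circles) and neurons (purple squares), with bars for ± 1 standard error and pale bands for the range when single libraries were left out. The band of Grin2c in OPCs stays between 1.37 and 1.89, and in neurons the bands of Grin1, Grin2a, Grin2b and Grin2c span 0.

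The neuron table counts transcripts, and few of the subunits were carried by the same transcript in all 6 libraries. Grin1 had 8 transcripts with a value, of which none was above 0 in all 6 libraries and 3 different ones led. Grin2c had 5 transcripts, at most 2 of them in a library, and again none in all 6. Grin2b had 2 of 6 transcripts above 0 in all libraries, and the single Grin2a transcript was above 0 in each. The division of reads between such near-identical transcripts is an estimate, and only the sums per gene were compared.

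Partner genes of the receptor were counted in 5 lists with 108 genes. In OPCs 102 were tested. Higher in dKO were 13 (12.7%) and lower 4 (3.92%) at an unadjusted p under 0.05, beside 6.27% and 5.27% of all genes. None passed the adjusted threshold, and the median log2 fold change was 0.10 (all genes 0.01). Without dKO library 3, 20 were higher. In neurons 101 were tested, with 5 (4.95%) higher and 0 lower, none at the adjusted threshold (median 0.18). This share of higher genes is that of all genes tested in neurons, 4.96%. Without dKO library 1, 2 were higher and 4 lower, and without dKO library 2, 10 were higher.

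Among the genes for co-agonists and glutamate handling in OPCs, 6 of 20 tested were higher and 1 was lower at the unadjusted threshold of edgeR's quasi-likelihood test. Slc1a1, a glutamate transporter known mainly from neurons, had normalized counts of 448 ± 81 (SD, n = 3) in ctl and 664 ± 73 in dKO (log2 fold change 0.57 ± 0.16, adjusted p = 0.307). Slc1a3, the glutamate transporter GLAST of astrocytes, had 3562 ± 822 and 7942 ± 4131 (1.16 ± 0.34, adjusted p = 0.31). Gldc, which degrades the co-agonist glycine, had 383 ± 36 and 594 ± 158 (0.63 ± 0.19, adjusted p = 0.313). Slc1a2 and Slc1a3 of this list are also among the 14 astrocyte markers above.

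Of 12 other glutamate receptor genes tested in OPCs, 2 were higher and 1 lower. Grm7, a metabotropic receptor that lowers transmitter release, had normalized counts of 620.3, 773 and 562 in ctl and 300.0, 249.5 and 166 in dKO, with no overlap (log2 fold change -1.45 ± 0.22, adjusted p = 0.18, edgeR's quasi-likelihood test). Grik3, a kainate receptor subunit, had 94.5, 239 and 181 in ctl and 449.6, 732 and 283 in dKO (1.52 ± 0.40, adjusted p = 0.292). Grm4 had 25.4 ± 4.5 and 54.1 ± 8.6 (SD, n = 3; 1.08 ± 0.31, adjusted p = 0.307). All 3 had groups that did not overlap, as had 16.9% of all genes tested in OPCs. They were named for the smallest p in this contrast, so this adds nothing to the p-values.

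Scaffold genes of the postsynaptic density counted 2 of 22 higher and 0 lower in OPCs. Dlgap3, which links PSD-95 to Shank proteins, had 80.2 ± 6.4 normalized counts in ctl and 145 ± 43 in dKO (SD, n = 3; log2 fold change 0.86 ± 0.26, adjusted p = 0.313, edgeR's quasi-likelihood test). Lin7c followed with 0.29 ± 0.11 (adjusted p = 0.369) and Dlg2 (PSD-93) with -0.37 ± 0.17 (adjusted p = 0.454). Of 29 kinases, phosphatases and calcium sensors 1 was higher and 1 lower. These were Camk2b, a subunit of the kinase CaMKII that binds the receptor, at 0.73 ± 0.20 (adjusted p = 0.3), and Cdk5, at -0.45 ± 0.13 (adjusted p = 0.31). Rasgrf1, the third by p, had 0.63 ± 0.37 (adjusted p = 0.545) and overlapped. Of 19 trafficking and modulator genes 2 were higher and 1 lower, with Erbb4, the neuregulin receptor, at -0.38 ± 0.12 (adjusted p = 0.313) and Pacsin1 at 0.34 ± 0.14 (adjusted p = 0.427).

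In neurons, where the number of partner genes past the unadjusted threshold was at the background, these included Homer1, Prkca, Cdk5r1 and Slc7a10. For Homer1, a scaffold that joins metabotropic receptors to Shank, the log2 fold change was 0.61 ± 0.24 (adjusted p = 0.524, edgeR's quasi-likelihood test), with overlapping groups. Prkca, a protein kinase C, had normalized counts of 174 ± 21 in ctl and 271 ± 43 in dKO (SD, n = 3; 0.64 ± 0.22, adjusted p = 0.521). Cdk5r1, the activator p35 of Cdk5, had 0.65 ± 0.26 (adjusted p = 0.524). For Prkca and Cdk5r1 the groups did not overlap, as for 15.3% of all genes tested in neurons. Slc7a10, a transporter of D-serine and glycine, had 0.79 ± 0.34 (adjusted p = 0.548) and overlapped between genotypes.

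The next genes by p in each list of neurons missed the unadjusted threshold. Their log2 fold changes were 0.95 ± 0.45 for Dlg2, 0.36 ± 0.20 for the scaffold gene Dlgap4 and 0.68 ± 0.30 for the phosphatase gene Ptpn5. Among trafficking genes the values were -0.36 ± 0.17 for Rest, a repressor of neuronal genes, 0.60 ± 0.29 for Apba1 and 0.25 ± 0.13 for Snx27. The vesicular glutamate transporters Slc17a6 and Slc17a7 had 0.74 ± 0.33 and 1.29 ± 0.66, the latter with a dKO SD of 463 on a mean of 443. Grm8 and Grm2 had 1.39 ± 0.64 and 1.82 ± 0.92.

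**Figure D5:**
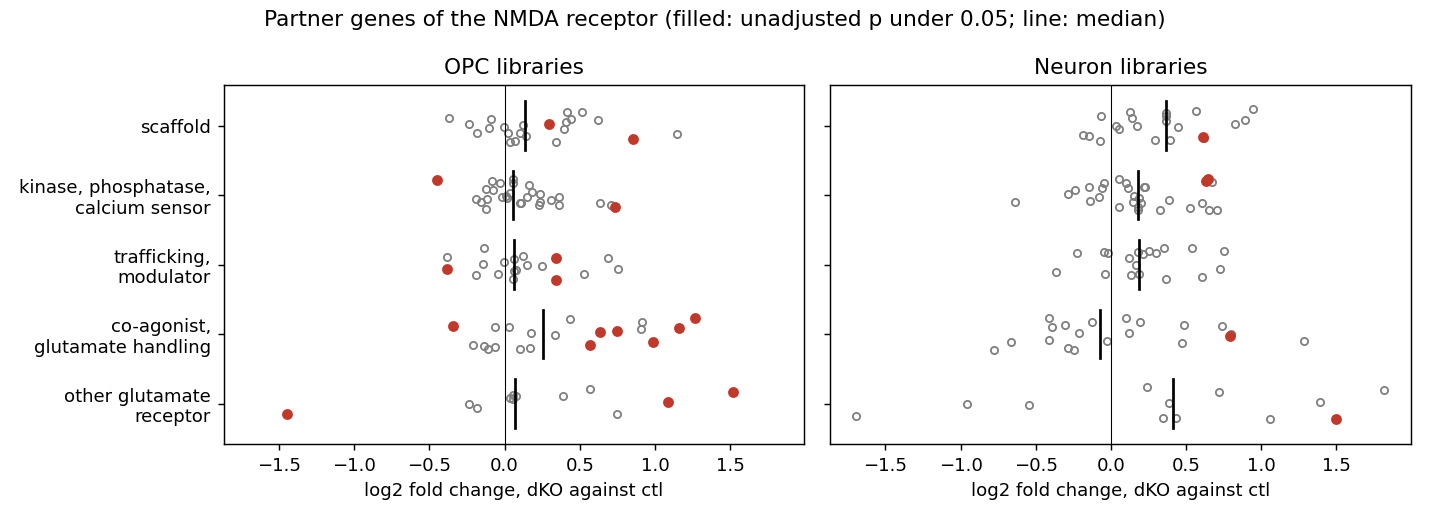
Log2 fold change, dKO against ctl (x axis), of each tested gene in 5 lists of NMDA receptor partners (rows) in OPCs (left) and neurons (right), filled where the unadjusted p was under 0.05, with a line at the list's median. The filled points lie on both sides of 0 in OPCs (13 higher, 4 lower) and above 0 in neurons (5 higher).

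Likeness over the 6 libraries of a cell type was measured as Pearson's r of log2 CPM (counts scaled to a common library size), as a description over few points. For Grin2c in OPCs, the 5 genes of 17363 with the highest r were Paqr7 (0.988), Ttyh3 (0.987), Kcnt2 (0.984), Prrx1 (0.982) and ENSMUSG00000120639 (0.982). For Grin2c in neurons they were Filip1 (0.988), St3gal1 (0.987), Amotl2 (0.982), Ehbp1l1 (0.978) and Mov10 (0.978). For Grin1 in neurons they were Tmem223 (0.996), B9d1 (0.994), Atp6v1d (0.992), Hint1 (0.992) and Ndufb1 (0.991). With ranks in place of values, 52, 15 and 80 genes shared the exact order of the 6 libraries, so the names depend on the measure.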

How the data were processed

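RNA of magnetically sorted OPCs and neurons from mouse cortex was sequenced (12 libraries). For OPCs the authors deposited raw counts and FPKM per Ensembl gene, and their methods name HISAT2, GRCm38 and featureCounts. The submitters' processing notes name mm39, and the OPC coordinates are not those of GRCm38, so none were converted. The neuron table that the authors deposited holds estimated counts and FPKM per RefSeq transcript. The methods name featureCounts for the gene counts of every sample. A program for estimated counts per transcript is not given in the sources used here. The estimated counts and FPKM of neurons were summed per gene identifier, and the estimated counts were rounded to whole numbers. Of 17918 gene identifiers, 17794 had a symbol in RefSeq. The deposited fold changes and p-values of the authors' own comparison were not used. The columns named cKO in the neuron table were taken as the dKO libraries of the same numbers. All columns of per-sample values matched a library.

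The members, lists and rules for named genes were chosen with earlier results of these data known. In each cell type, genes whose normalized counts averaged 10 or more (17364 in OPCs, 14352 in neurons) were normalized by TMM and tested for dKO against ctl with edgeR 4.0.16 (R 4.3.3), by the quasi-likelihood test of genotype alone, with p-values adjusted after Benjamini-Hochberg over all genes tested (threshold 0.05). Standard errors come from the same fit. The common coefficient of variation was 20.5% in OPCs and 27.7% in neurons. Normalized counts are counts scaled by TMM library size. Correlations used log2 CPM with a prior count of 2. Alternatives were DESeq2 1.42.0, RLE size factors, all genes with at least 1 count, a replicate block and leaving out each library. On simulated data with a log2 fold change of 2, the OPC fit recovered 196 of 197 changed genes that it tested and called 8 unchanged ones, and the neuron fit 195 of 196 and 13. The simulated counts had a common spread for all genes and no differences in cell content between libraries. They therefore do not show how many changed genes the fits would find in the real libraries. The named genes were all subunits, the targeted genes, the neighbours of Grin2c, up to 3 genes with the smallest p per partner list and cell type, the 5 genes most like Grin2c or Grin1, and the highest and lowest markers. Some genes that this rule names are not reported here. Promoter windows are from a table of RefSeq promoters on GRCm38.p6, in which 3 of the 6 members were matched (Grin1, Grin2c and Grin2d). Libraries are pools of mice, and the p-values set the difference between genotypes against the spread between these pools. The spread between single mice is not seen.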

Additional observations from a re-analysis of the deposited data

How the results depend on the processing

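In OPCs the number of genes at an adjusted p under 0.05 was 1, and it was 293 with DESeq2, 87 with no filter on low counts (1685 then higher at the unadjusted threshold) and 27 with a replicate block. Leaving out single libraries gave 1 to 199. The unadjusted counts were then 630 to 1394 higher and 476 to 898 lower, and partner genes higher were 10 to 20. In neurons DESeq2 gave 88 genes, and every other alternative 0. Partner genes higher in neurons were 10 with DESeq2 and 2 to 10 leaving out single libraries, lower ones were 1 with the replicate block and 0 to 4 leaving out libraries, and the unadjusted counts were 473 to 861 higher and 307 to 720 lower. Subunits past the unadjusted threshold in neurons were 0 to 1. The log2 fold change of Grin2c in neurons ranged from -1.38 to 0.82 when single libraries were left out, that of Grin2a from -1.25 to 1.23, and that of Grin1 and Grin2b from -0.18 and -0.15 upwards, to 0.47 and 1.02. In OPCs Grin2a ranged from -0.91 to 0.13 and Grin2d from -0.092 to 0.85. There Grin1 ranged from 0.17 to 0.74, Grin2b from 0.78 to 1.71 and Grin3a from 0.11 to 0.75, each lowest without dKO library 2. With a replicate block, Grin2a in neurons had -0.27. The causes were not tested, and a library left out also means fewer samples. Deviations from the group means were correlated between ctl and dKO libraries of equal replicate number. The values were -0.11, 0.15 and 0.12 in OPCs and 0.17, -0.07 and -0.07 in neurons. Some libraries correlated best with their own number, and others did not. These few values do not settle whether equal numbers pair the libraries. Grin2d in neurons fell under the filter without dKO replicate 3 and has no value there. Shares without division by length had Grin2c at 45.1% of ctl and 65.2% of dKO OPCs and Grin2b in front in neurons, at 34.7% and 35.6%. With the lengths of the OPC table, an alternative chosen after seeing the data, the mean share of Grin1 in ctl neurons was 26.4%, the highest of the 6, although Grin2c led in ctl library 1 (35.6% against 22.7%), and in dKO neurons Grin3a led at 28.6%, with Grin1 at 22.5%. The log2 fold changes of Grin1, Grin2b, Grin2c and Grin3a in OPCs and of Grin2d and Grin3a in neurons kept their sign under each alternative that gave a value. The number of astrocyte markers higher in dKO OPCs at the unadjusted threshold, 12 of 14, was 8 to 13 leaving out single libraries, lowest without dKO replicate 2. Single partner genes, markers and neighbours were not followed under the alternatives. Grin2a and Grin2b in OPCs had 3 to 43 raw counts in a library, and such counts limit what can be seen.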
